A study of Mus musculus with 8 samples.

Results

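The machinery that fuses, divides and renews mitochondria was followed through 9 genes: Mfn1, Mfn2 and Opa1 for fusion, Dnm1l, Fis1 and Mff for fission, and Tfam, Nrf1 and Ppargc1b for biogenesis. The members were the probe sets annotated to one of these symbols alone, which gave 25 of the 45037 probe sets on the array, for 9 of the 18193 genes that had such a probe set. Of the 25, 20 passed the filter on low signal and were tested, and the other 5 are described separately. The RNA came from memory CD4 T cells of the spleen, taken from mice infected with the Armstrong strain of lymphocytic choriomeningitis virus (LCMV) 60 days earlier and sorted into T follicular helper cells (Tfh) and T helper 1 cells (Th1). There were 4 groups of 2 arrays, namely Rictor-null Tfh, WT Tfh, Rictor-null Th1 and WT Th1, where WT is wild-type, so that all groups shared the infection, the time point and the memory stage. Rictor is the defining subunit of mTOR complex 2, a kinase complex that phosphorylates Akt. Every array held RNA pooled from 10 mice or more, so a group gives the spread between 2 pools and none between animals. The promoter or cell type that drove the Rictor deletion, the age and sex of the mice and the sorting gates were not given in the sources used here.

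Mitochondria form a network that is remodelled all the time. Mitofusins join the outer membranes of neighbouring organelles and Opa1 joins the inner ones, while the dynamin Drp1, the product of Dnm1l, is recruited by receptors such as Mff and constricts the organelle until it divides. New mitochondrial mass depends on nuclear factors, among them Nrf1 and coactivators of the PGC-1 family, which switch on genes such as Tfam, whose product packages and transcribes mitochondrial DNA. In CD8 T cells of the mouse, memory cells are known for fused networks and effector cells for fragmented ones.

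The sorted cells carried T cell genes at high signal, and 4 of the 4 measured T cell markers passed the filter, with sums of 13625 to 14453 on Rictor-null Tfh arrays, against 12920 to 13114 on WT Tfh arrays, and of 13060 to 13763 on Rictor-null Th1 arrays, against 13398 to 14004 on WT Th1 arrays. The summed Tfh markers were 2415 to 2454 on Rictor-null Tfh arrays, against 1656 to 1685 on WT Tfh arrays, and 1554 to 1559 on Rictor-null Th1 arrays, against 1163 to 1178 on WT Th1 arrays. Cxcr5, the follicle-homing receptor, and Bcl6, the Tfh-defining repressor, were higher in Tfh than in Th1 arrays of both genotypes. So were Pdcd1, Il21 and Sh2d1a. Izumo1r, the remaining Tfh marker, had the opposite sign and did not pass in limma, at -0.11 in Rictor-null (adjusted p = 0.361) and -0.26 in WT mice (adjusted p = 0.0531). The Th1 regulator Tbx21 and the Th1 cytokine gene Ifng did not pass the test between Tfh and Th1 arrays in either genotype (limma adjusted p from 0.232 to 0.930). Of the 5 measured Th1 markers 1 passed, Cxcr6, which was lower in Tfh than in Th1 cells of Rictor-null mice (-0.58, adjusted p = 0.0186). Of 6 measured B cell markers, Cd22 (133 to 352) and Cd79b (35.7 to 80.6) were above the filter and Cd79a, Ms4a1, Pax5 and Blnk were below it, as was the regulatory T cell gene Foxp3. Probe sets for Rictor did not check the genotype, since the deleted part and the position of the probes were not given. At its brightest probe set, Rictor had signals of 563 and 576 in Rictor-null Tfh, against 560.3 and 563 in WT Tfh, and 493 and 474 in Rictor-null Th1, against 468 and 556 in WT Th1. Of its 5 tested probe sets the dimmest alone passed between genotypes. It was higher in Rictor-null Tfh, with 45.6 and 53.5, against 32.4 and 35.5 in WT Tfh (0.30, limma adjusted p = 0.0366). That goes against the direction of the label. Only the Rictor-null Tfh arrays were above the array median at this probe set. It thus entered the test through the group in which it was high, and the call is given as a description.

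Mfn2 was the fusion gene that differed between groups. Mfn2 encodes mitofusin 2, an outer-membrane GTPase that also tethers mitochondria to the endoplasmic reticulum. At probe set 1448131_at its signal was 169 and 172 in Rictor-null Tfh, against 140.4 and 136 in WT Tfh. In Th1 cells it was 185 and 186 in Rictor-null, against 182 and 191 in WT. The WT Tfh arrays were the low pair, below the other 6 arrays, and the Rictor-null Tfh pair lay between them and the Th1 arrays, which overlapped between genotypes. Group means were 170.1 ± 2.16 for Rictor-null Tfh, against 138 ± 3.03 for WT Tfh, and 186 ± 1.26 for Rictor-null Th1, against 186 ± 6.17 for WT Th1 (SD, n = 2 each). The plot of signals per array shows this pattern beside the brightest probe sets of the other 8 genes.

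**Figure D1:**
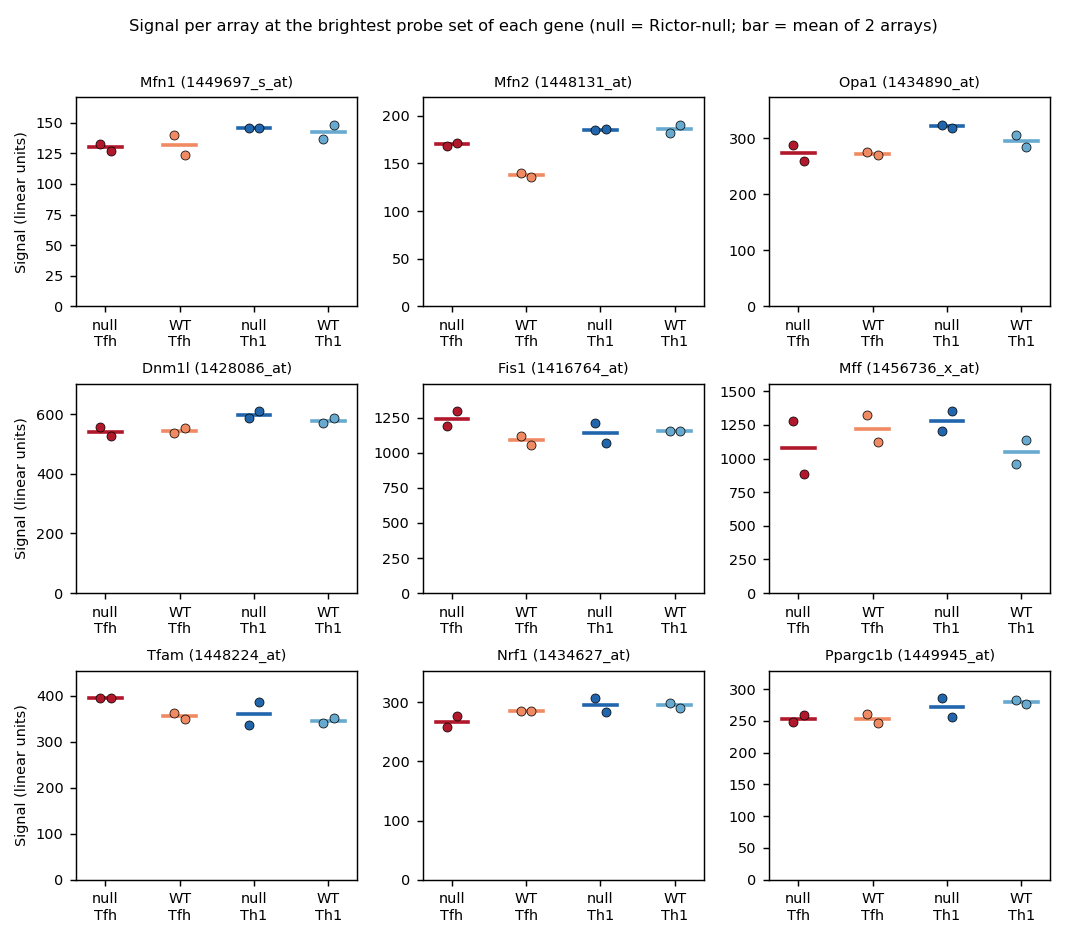
Signal on a linear scale for each of the 8 arrays (points) at the brightest probe set of each of the 9 genes, with a bar at the mean of the 2 arrays of a group; all axes start at 0 and null stands for Rictor-null. For Mfn2 the WT Tfh arrays, at 140.4 and 136, lie below the other 6 arrays, whereas for Mff the 2 arrays of Rictor-null Tfh, at 1276 and 887, are farther apart than the group means.

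In Tfh cells, Mfn2 rose in Rictor-null relative to WT by 0.25 ± 0.055 log2 (SE), a 1.19-fold change (adjusted p = 0.0229, limma with Benjamini-Hochberg adjustment over 23725 probe sets). Fold changes here are on the log2(signal + 32) scale, which understates the change of dim probe sets. This was 1 of 20 member probe sets, where 10.1% of all tested probe sets passed, so the share of members called was not above the background. An unadjusted p under 0.05 was reached by 3 of 20, against 27.9% of all. In Th1 cells the Mfn2 difference was -0.00 ± 0.055, with a 95% interval from -0.13 to 0.12 (adjusted p = 0.969). The difference between both genotype effects was 0.25 ± 0.077 and did not pass (unadjusted p = 0.00935, adjusted p = 0.152), so the effect in Tfh was not shown to differ from that in Th1 cells. Averaged over both lineages, the genotype difference of Mfn2 was 0.12 ± 0.039 (adjusted p = 0.0667).

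Several measures moved with the low Mfn2 signal of the WT Tfh arrays. The 75th percentile of all signals was 122 on both WT Tfh arrays, against 128.4 to 134.8 on the other 6. Scaling the arrays to that percentile gave an Mfn2 difference of 0.17 between Rictor-null and WT Tfh cells (adjusted p = 0.0709), and quantile normalization gave 0.17 (adjusted p = 0.0786), so the call ended under both while the direction was kept. Over all probe sets called in that comparison, 84% were higher in Rictor-null Tfh as deposited, 64.5% after quantile normalization and 49.4% after 75th percentile scaling. Cd8b1, a CD8 T cell marker at low signal, was higher on Rictor-null Tfh arrays, with 58.3 and 62.5, against 45.2 and 43.3 on WT Tfh arrays (0.28, adjusted p = 0.0179), and it read 52.8 to 56.9 on the 4 Th1 arrays. The other CD8 T cell marker, Cd8a, did not pass between Tfh genotypes (-0.08, adjusted p = 0.544). Ikzf2, a gene of regulatory and follicular T cells, had signals of 1850 and 1893 in Rictor-null Tfh, against 1051 and 1048 in WT Tfh. It did not follow Mfn2 in Th1 cells, where it was 1170.0 and 1300.4 in Rictor-null, against 771 and 812 in WT (0.62, adjusted p = 0.000471). The part of the array scale and of cells with these markers in the Mfn2 difference was not tested beyond these values, and in sorted bulk RNA fewer cells of a type cannot be told apart from less RNA per cell.

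Between lineages, Mfn2 was lower in Tfh than in Th1 cells of WT mice by 0.36 ± 0.055 log2 (a difference of -0.36, 0.780-fold, adjusted p = 0.00663). Again this was 1 of 20 members, against 9.40% of all probe sets passing, and 4 of 20 had an unadjusted p under 0.05, against 29.7%. In Rictor-null mice the same difference was -0.11 ± 0.055 (95% interval -0.23 to 0.02, adjusted p = 0.261). Ordered by level, the WT Th1 and Rictor-null Th1 arrays overlapped, the Rictor-null Tfh pair lay below both without passing the test against Rictor-null Th1, and the WT Tfh pair lay below Rictor-null Tfh and passed. The WT lineage comparison and the Tfh genotype comparison share the 2 WT Tfh arrays, so the lower WT Tfh signal enters both. Leaving out the first or the second WT Tfh array ended the Mfn2 call between genotypes (adjusted p = 0.132 and 0.177) and between lineages (0.0724 and 0.0827), with differences of 0.27 and 0.23 between genotypes and of -0.38 and -0.34 between lineages. Leaving out the second Rictor-null Tfh array ended the genotype call too (0.24, adjusted p = 0.0884).

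**Figure D2:**
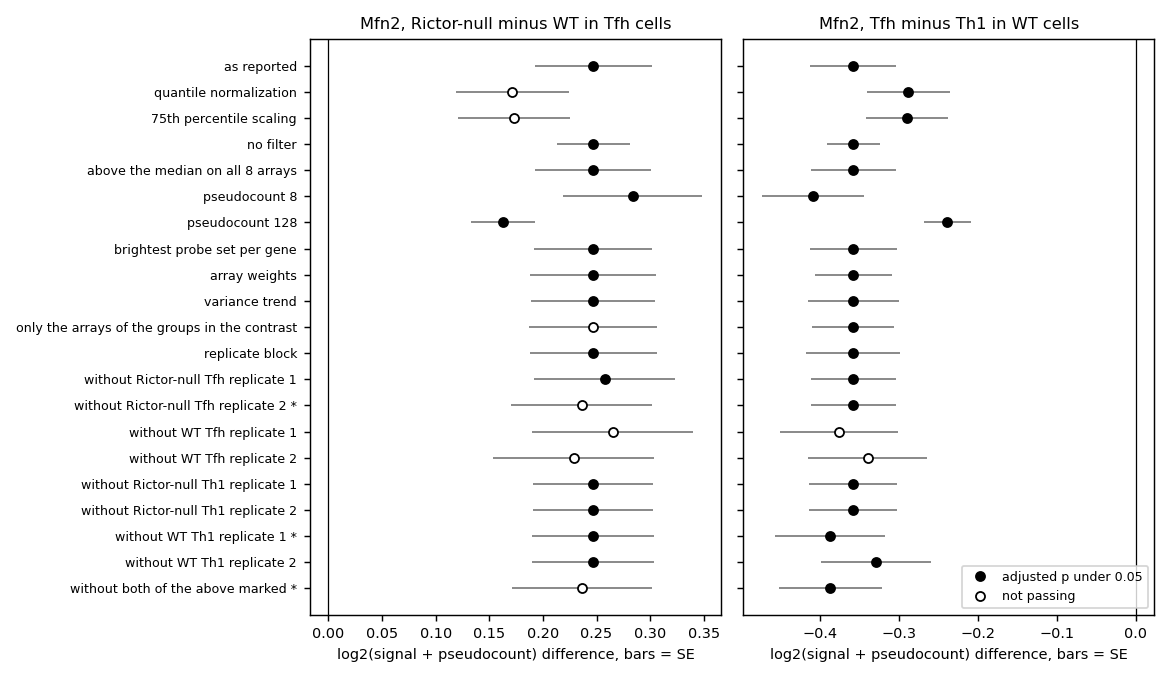
Mfn2 differences at probe set 1448131_at (points, with SE as bars) as reported and under each of 20 alternative settings, for Rictor-null minus WT in Tfh cells (left) and Tfh minus Th1 in WT cells (right); filled points passed at an adjusted p under 0.05. The genotype difference ran from 0.16 to 0.28 and passed in 13 of 20 settings, and the lineage difference ran from -0.41 to -0.24 and passed in 18 of 20.

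The second Mfn2 probe set, 1451900_at, read 10.1 to 16.4 on the 8 arrays and was above the array median on 0 of them, so it gives no second reading of the gene. The genes whose profiles over the 8 arrays lay closest to that of Mfn2 were Wdr47 and Naglu (Pearson r = 0.989 each), Cyth4 (0.989), Scaf11 (0.985) and Yipf3 (0.985). These come from 10666 genes, of which 258 had an r above 0.9, and the points share 8 arrays and 4 groups, so the likeness is a description. Naglu encodes a lysosomal glycosidase and Cyth4 an exchange factor for Arf GTPases. For Cyth4 the signals were 197 and 189.7 in Rictor-null Tfh, against 159.97 and 151 in WT Tfh arrays, with 203 to 213 in the 4 Th1 arrays.

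The 250 bases before the annotated starts of 8 members were read from RefSeq (GRCm38.p6) and searched on both strands for GCGCANGCG (reverse CGCNTGCGC), the core of the element bound by Nrf1, and for CCGGAAGT (reverse ACTTCCGG), the core bound by the ETS factor GABP. Of all 32851 such windows, 5.16% held the Nrf1 letters and 2.88% the GABP letters. The 8 members had 14 windows, of which 1 held the Nrf1 letters, that of Opa1, and 3 held the GABP letters, those of Mfn1, Fis1 and Tfam. Shown are Mfn2, whose signal differed, and a member with each motif, 5′ to 3′ on the coding strand with the motif in capitals. They lie at chr4:147904910-147905159 on the minus strand for Mfn2 (the most upstream of 3 listed starts), chr16:29579084-29579333 on the plus strand for Opa1 and chr10:71238045-71238294 on the minus strand for Tfam.
Mfn2: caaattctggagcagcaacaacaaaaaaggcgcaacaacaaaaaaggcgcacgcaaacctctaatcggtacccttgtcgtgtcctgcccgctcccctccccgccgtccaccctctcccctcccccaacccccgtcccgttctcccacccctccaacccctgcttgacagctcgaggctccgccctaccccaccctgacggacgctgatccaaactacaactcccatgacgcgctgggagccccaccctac
Opa1: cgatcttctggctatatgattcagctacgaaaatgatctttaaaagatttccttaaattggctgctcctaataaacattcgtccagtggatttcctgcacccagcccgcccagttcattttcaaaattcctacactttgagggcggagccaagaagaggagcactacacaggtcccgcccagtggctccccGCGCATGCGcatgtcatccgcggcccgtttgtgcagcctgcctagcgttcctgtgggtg
Tfam: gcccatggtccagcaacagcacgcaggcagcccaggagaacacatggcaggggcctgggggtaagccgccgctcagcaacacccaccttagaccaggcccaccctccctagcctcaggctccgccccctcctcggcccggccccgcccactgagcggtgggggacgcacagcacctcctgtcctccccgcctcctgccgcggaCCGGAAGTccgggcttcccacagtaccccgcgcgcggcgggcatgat
The Opa1 window carries the Nrf1 letters at -59 to -51 from the start, and the Tfam window carries the GABP letters at -47 to -40. Neither set of letters is in the Mfn2 window, which says nothing about binding by either factor.

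Mfn1, the partner mitofusin that is central to docking of outer membranes, had 3 probe sets and passed in 0 of the 6 comparisons in limma (unadjusted p under 0.05 in 1 case). Its brightest, 1449697_s_at, read 133 and 127 in Rictor-null Tfh, against 139.6 and 123 in WT Tfh, and 146 and 146 in Rictor-null Th1, against 136 and 148 in WT Th1. The genotype ranges overlapped in both lineages, and the differences were -0.01 ± 0.067 in Tfh and 0.03 ± 0.067 in Th1 cells. Of the 20 tested probe sets, 1426773_at of Mfn1 had the second largest negative value between Tfh and Th1 in WT, at -0.24 ± 0.087 (unadjusted p = 0.0198, adjusted p = 0.102), while the other Mfn1 probe sets were at -0.09 and -0.08. Between Rictor-null Tfh and Rictor-null Th1 cells the 3 probe sets disagreed in sign, with values of -0.14, -0.02 and 0.07.

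Opa1, the inner-membrane fusion GTPase that also shapes cristae, did not pass between genotypes at any of its 3 probe sets. Its brightest probe set, 1434890_at, read 289 and 260.1 in Rictor-null Tfh, against 276 and 269 in WT Tfh, and 324 and 318 in Rictor-null Th1, against 306 and 284 in WT Th1. The Tfh genotypes overlapped, and both Rictor-null Th1 arrays were the highest of the 8. In Tfh cells the 3 Opa1 probe sets differed between genotypes by 0.01, 0.03 and 0.01, and in Th1 cells by 0.11, 0.04 and -0.00, with adjusted p from 0.332 to 0.979.

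Between lineages, Opa1 was at -0.21 ± 0.065 in Rictor-null mice on 1434890_at (adjusted p = 0.0795) and at -0.10 ± 0.065 in WT mice (adjusted p = 0.325). The probe set 1449214_a_at gave -0.23 ± 0.091 in Rictor-null and -0.22 ± 0.091 in WT mice (adjusted p = 0.144 and 0.137). Without the first Rictor-null Tfh array the Rictor-null value was -0.09 (adjusted p = 0.481), and without the second it was -0.37 and passed (adjusted p = 0.0255). The WT value passed in 4 of 19 alternative settings. Its signals were 53.2 and 71.9 in Rictor-null Tfh, against 83.2 and 74.0 on the Rictor-null Th1 arrays, and 62.1 and 58.4 in WT Tfh, against 73.6 and 78.0 in WT Th1. The Tfh arrays lay below the Th1 arrays in both genotypes, yet the third probe set, 1418768_at, was at -0.02 and -0.04. None of the 3 Opa1 probe sets passed in the limma fit as reported, with unadjusted p under 0.05 for 1434890_at in Rictor-null and for 1449214_a_at in both genotypes.

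Dnm1l encodes Drp1, the GTPase that performs fission. At 1428086_at, its brightest probe set, the signal was 556 and 526 in Rictor-null Tfh, against 535 and 553 in WT Tfh, and 587 and 609 in Rictor-null Th1, against 571 and 585 in WT Th1. Genotypes overlapped in Tfh cells, and all 4 Th1 arrays were above the 4 Tfh arrays. The genotype difference was -0.01 ± 0.058 in Tfh (95% interval -0.14 to 0.12) and 0.05 ± 0.058 in Th1 cells (-0.08 to 0.18). The lineage difference was -0.14 ± 0.058 in Rictor-null (adjusted p = 0.173) and -0.08 ± 0.058 in WT mice (adjusted p = 0.357), and 1428087_at, designed on the same transcript, gave -0.16 and -0.10.

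A dim Dnm1l probe set was the third and last member value to pass. At 1452638_s_at the signal was 40.2 and 39.4 on the Rictor-null Tfh arrays, against 20.5 and 27.1 on the Rictor-null Th1 arrays, and 24.9 and 32.7 on the WT Tfh arrays, against 27.2 and 33.8 on the WT Th1 arrays. Among Rictor-null mice it was higher in Tfh than in Th1 cells by 0.37 ± 0.086 log2 (adjusted p = 0.0272), as 1 of 20 members where 10.3% of all probe sets passed (unadjusted p under 0.05 in 5 of 20, against 25.5%). The 2 Rictor-null Tfh arrays were the only 2 of 8 above the array median, so this probe set entered the test through the group in which it was high, and the call is given as a description. With no filter its adjusted p was 0.0748, and the brighter Dnm1l probe sets carried the opposite sign. The suffix s marks probes shared by several transcripts. The fourth Dnm1l probe set, 1428008_at, read 7.78 to 17.2 and was above the array median on 0 arrays.

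Fis1 is an outer-membrane protein, first described in yeast as the fission receptor. Its signal at 1416764_at was 1189 and 1297 in Rictor-null Tfh, against 1117 and 1059.9 in WT Tfh, and 1216 and 1069.9 in Rictor-null Th1, against 1157 and 1155 in WT Th1. The Tfh genotypes did not overlap, and the difference was 0.19 ± 0.074 (unadjusted p = 0.0327, adjusted p = 0.141). The Th1 genotypes overlapped, with a difference of -0.02 ± 0.074. At the other Fis1 probe set, 1443819_x_at, the Tfh value was 0.06 ± 0.069, with an interval from -0.10 to 0.21.

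Mff, the main receptor for Drp1 on the outer membrane, had the widest intervals of the members. At 1456736_x_at it read 1276 and 887 in Rictor-null Tfh, against 1319.9 and 1125 in WT Tfh, and 1205 and 1351 in Rictor-null Th1, against 957 and 1138 in WT Th1. The lowest arrays were the second Rictor-null Tfh and the first WT Th1 array, which also had the lowest scores, -18.1 and -11.8, on the third principal component of all tested probe sets (20.6% of variance). Differences between genotypes were -0.19 ± 0.15 in Tfh and 0.28 ± 0.15 in Th1 cells (adjusted p = 0.453 and 0.301). Without the first Rictor-null Tfh array, 1 array alone stood for that group and the Tfh difference was -0.44 (adjusted p = 0.0400), and without the second it was 0.06. The other tested Mff probe set, 1451572_a_at, was at 0.05 ± 0.083 in Tfh and 0.07 ± 0.083 in Th1 cells. The 2 dim ones, 1456582_x_at and 1457371_at, read 17.1 to 26.7 and 19.1 to 24.9.

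Tfam, the packaging and transcription factor of mitochondrial DNA, had signals of 395 and 396 in Rictor-null Tfh, against 364 and 349 in WT Tfh, at 1448224_at. In Th1 cells they were 336 and 388 in Rictor-null, against 341 and 352 in WT. Both Rictor-null Tfh arrays were the highest of the 8, but the difference of 0.14 ± 0.070 in Tfh cells did not pass (adjusted p = 0.230), nor did 0.05 ± 0.070 in Th1 cells (adjusted p = 0.679). Its second probe set, 1456215_at, lay below the filter at 30.1 to 36.1. There the Tfh arrays read 34.3 and 34.8 in Rictor-null, against 30.1 and 30.9 in WT, and with no filter the difference was 0.09 ± 0.029 (adjusted p = 0.137).

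Nrf1, a transcription factor for nuclear genes of the respiratory chain, had 4 probe sets, none of which passed in the limma fit in any of the 6 comparisons (unadjusted p under 0.05 in 1 case, 1424787_a_at between WT Tfh and WT Th1, at -0.14 ± 0.056). The brightest, 1434627_at, read 257 and 276 in Rictor-null Tfh, against 286 and 285 in WT Tfh, and 307 and 283 in Rictor-null Th1, against 299.5 and 290.2 in WT Th1. The Rictor-null Tfh arrays were the 2 lowest, with a difference from WT Tfh of -0.09 ± 0.062. The other 3 probe sets had the opposite sign in Tfh cells, at 0.13, 0.11 and 0.05, so the Nrf1 probe sets gave no common direction.

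Ppargc1b encodes PGC-1β, a coactivator of Nrf1 and of the estrogen-related receptors. Its single probe set, 1449945_at, read 248 and 259 in Rictor-null Tfh, against 260.01 and 246 in WT Tfh, and 286 and 256 in Rictor-null Th1, against 283 and 276 in WT Th1. Genotypes overlapped in both lineages, and the differences were 0.00 ± 0.066 in Tfh (95% interval -0.15 to 0.15) and -0.04 ± 0.066 in Th1 cells (-0.19 to 0.10). Between Tfh and Th1 cells the values were -0.09 ± 0.066 in Rictor-null and -0.13 ± 0.066 in WT mice (adjusted p = 0.455 and 0.214).

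**Figure D3:**
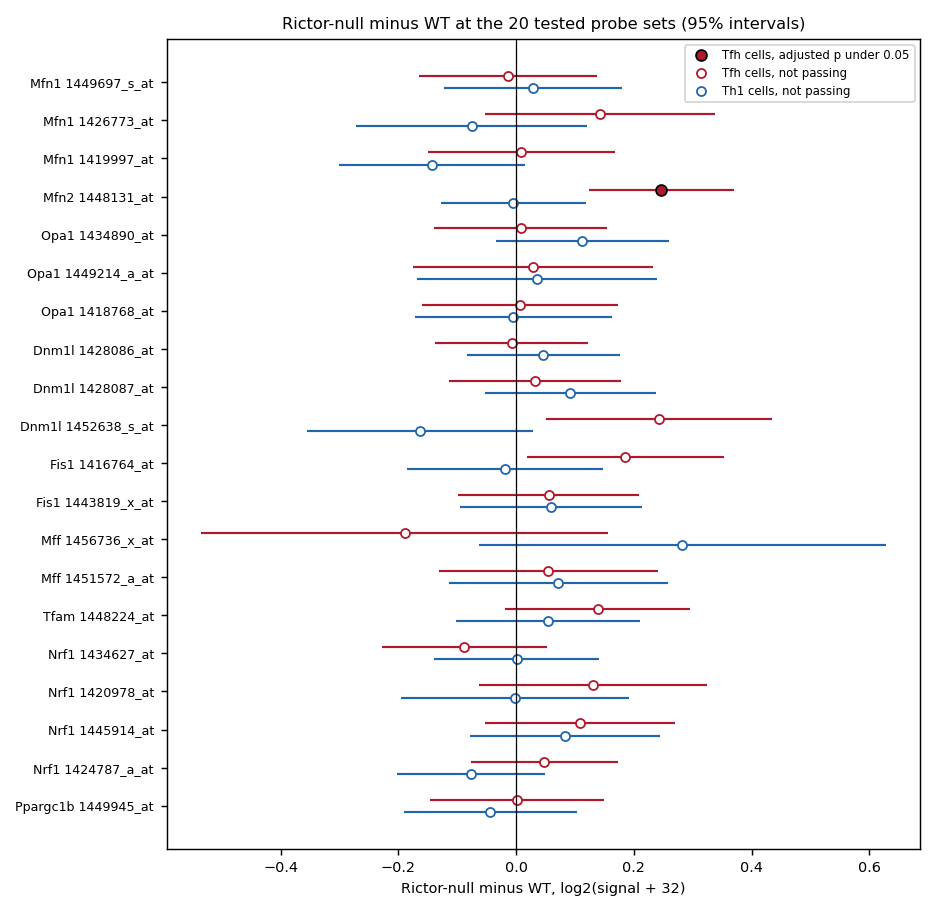
Rictor-null minus WT on the log2(signal + 32) scale at the 20 tested probe sets (points, with 95% intervals from limma), in Tfh and Th1 cells; filled points passed at an adjusted p under 0.05. Mfn2 in Tfh cells, at 0.25, is the filled point, and the widest intervals belong to Mff 1456736_x_at.

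Across the set, the Rictor-null minus WT values in Tfh cells ran from -0.19 to 0.25 with a median of 0.04, and the median over all 23725 probe sets was 0.04 as well. In Th1 cells the members ran from -0.16 to 0.28 with a median of 0.01, against 0.00 over all probe sets. There, 0 of 20 passed in limma, where 8.75% of all probe sets did, and 0 of 20 had an unadjusted p under 0.05, against 23.9%. The arrays of the 2 genotypes did not overlap on 7 of 20 members in Tfh cells, where 58.5% of all probe sets did not, and on 7 of 20 in Th1 cells, where it was 55.0%. For the difference between both genotype effects, 0 of 20 passed in limma (1.26% of all) and 2 had an unadjusted p under 0.05 (18.5% of all), Mfn2 and the dim Dnm1l probe set. For the genotype effect averaged over both lineages it was 0 of 20 (14.7% of all), with Mfn2 alone, 1 of 20, under an unadjusted p of 0.05 (29.6% of all).

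The lineage comparisons had 16 of 20 members below 0 in WT mice. Those values ran from -0.36 to 0.22 with a median of -0.08, against -0.05 over all probe sets, and in Rictor-null mice from -0.25 to 0.37 with a median of -0.03, against -0.01. Tfh and Th1 arrays did not overlap on 9 of 20 members in Rictor-null mice, where 51.0% of all probe sets did not, and on 11 of 20 in WT mice, where it was 65.2%. WT Tfh was the group with the lowest mean on 11 of the 20 probe sets (55%) and the highest on 0, while over all tested probe sets it was lowest on 40.9% and highest on 18.7%. The highest group was Rictor-null Th1 on 9, WT Th1 on 7 and Rictor-null Tfh on 4 probe sets. These counts were not made again on rescaled arrays. Of all probe sets called between WT Tfh and WT Th1, 24.6% were higher in Tfh as deposited, 45.6% after quantile normalization and 60.5% after 75th percentile scaling. The members' median in that comparison was -0.04 after quantile normalization, against -0.01 over all probe sets. After 75th percentile scaling it was -0.02, against 0.02 over all probe sets. The B cell markers summed to 437 to 491 in Rictor-null Tfh, against 281 to 330.4 in Rictor-null Th1, and to 476 to 477 in WT Tfh, against 356 to 395 in WT Th1, with 2 of 6 markers above the filter. That difference was carried by Cd22, which was higher in Tfh than in Th1 cells by 0.95 in Rictor-null (adjusted p = 0.000374) and by 0.50 in WT mice (adjusted p = 0.0126), whereas Cd79b was at -0.28 and -0.19 and did not pass. The part of these markers in the lineage values was not tested.

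**Figure D4:**
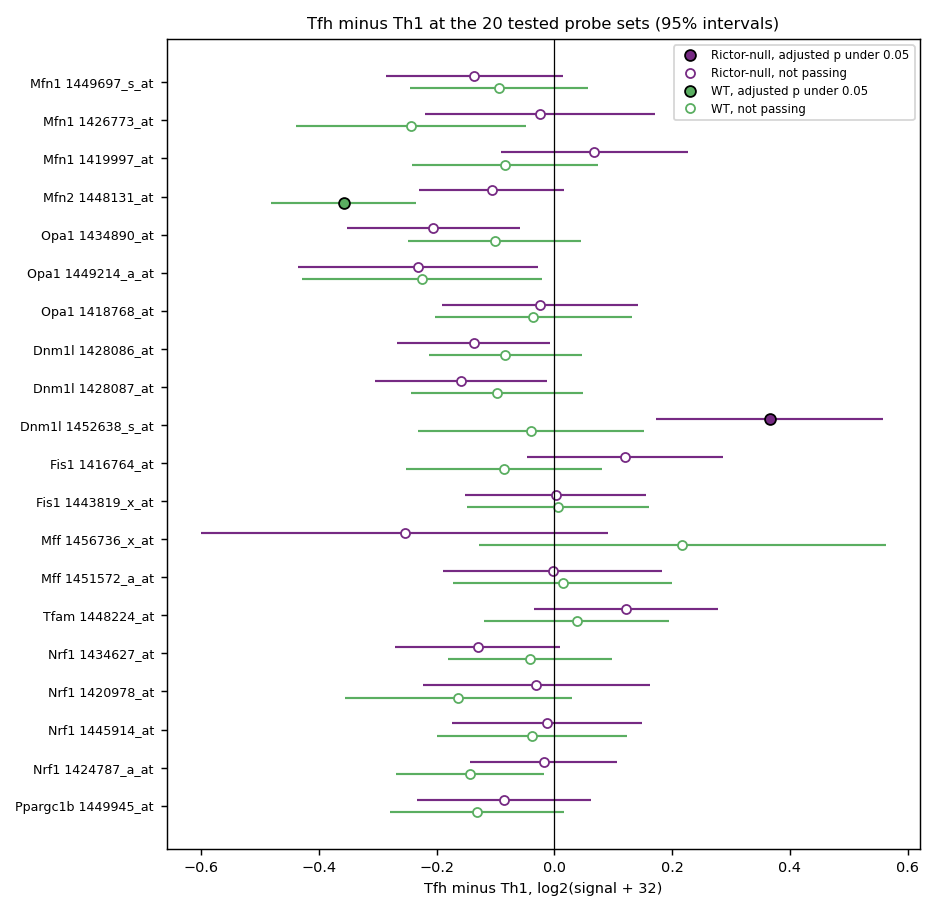
Tfh minus Th1 on the log2(signal + 32) scale at the 20 tested probe sets (points, with 95% intervals from limma), in Rictor-null and WT mice; filled points passed at an adjusted p under 0.05. Mfn2 in WT mice, at -0.36, and Dnm1l 1452638_s_at in Rictor-null mice, at 0.37, are the filled points.

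The wider mitochondrial genes were read from 4 lists of 95 genes, of which 91 were on the array and 81 passed the filter at their brightest probe set. In the genotype effect averaged over both lineages, 7 of 81 (8.64%) rose and 0 fell in Rictor-null relative to WT in limma (13 and 2 at an unadjusted p under 0.05). In Tfh cells alone 4 rose and 0 fell (4.94%; 17 and 2 unadjusted), and in Th1 cells 2 rose and 0 fell (2.47%; 7 and 3 unadjusted). These shares were below the 14.7%, 10.1% and 8.75% over all probe sets. They were also below the 17.1%, 13.6% and 10.5% in a fit of the brightest probe sets of 11214 genes. For the difference between both genotype effects, 0 of 81 passed in limma (7 above 0 and 2 below 0 at an unadjusted p under 0.05).

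Gabpb1, the beta subunit of the ETS factor GABP that acts on promoters of mitochondrial genes, had the largest genotype difference of the lists. At 1436232_a_at it read 109 and 115 in Rictor-null Tfh, against 71.2 and 71.4 in WT Tfh, and 139 and 131 in Rictor-null Th1, against 96.9 and 85.6 in WT Th1. Rictor-null arrays were above WT arrays in both lineages. Gabpb1 rose by 0.48 ± 0.064 in Tfh (adjusted p = 0.00206) and by 0.44 ± 0.064 in Th1 cells (adjusted p = 0.00293), and averaged over both lineages it passed in 19 of 19 alternative settings. Its other probe set, which was dimmer, was at 0.11 ± 0.077 and 0.13 ± 0.077 and did not pass, so the size rests on 1 probe set.

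Among regulators of dynamics, 3 of 26 measured genes rose in the genotype effect averaged over both lineages and 0 fell in limma (4 and 1 at an unadjusted p under 0.05). That share of 11.5% was below the 14.7% over all probe sets. Inf2, a formin that builds actin at fission sites, rose by 0.27 ± 0.047 (adjusted p = 0.00484, passing in 19 of 19 settings). Inf2 read 182 and 209 in Rictor-null Tfh, against 162 and 161 in WT Tfh, and 296 and 295 in Rictor-null Th1, against 236 and 229.9 in WT Th1. Mul1, a mitochondrial ubiquitin and SUMO ligase that acts on Mfn2 and Drp1, rose by 0.23 ± 0.054 (adjusted p = 0.0198, passing in 15 of 19 settings). Miga1, an outer-membrane protein that promotes fusion, rose by 0.20 ± 0.050 (adjusted p = 0.0284, 12 of 19 settings), and its second probe set rose by 0.23 ± 0.040 (adjusted p = 0.00492). The second Inf2 probe set was at 0.04 ± 0.058 and did not pass.

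In the other lists, Sqstm1, which encodes the autophagy receptor p62, rose by 0.31 ± 0.066 (adjusted p = 0.0137) as 1 of 10 mitophagy genes. Its signal was 784 and 948 in Rictor-null Tfh, against 638 and 619 in WT Tfh, and 842 and 732 in Rictor-null Th1, against 705 and 669 in WT Th1. Slc25a4, an ADP/ATP carrier, rose by 0.17 ± 0.041 (adjusted p = 0.0214) as 1 of 18 import and mass genes, and Mterf1a, a mitochondrial transcription termination factor, by 0.17 ± 0.046 (adjusted p = 0.0357) beside Gabpb1 as 2 of 27 biogenesis genes. The shares called were 10% of mitophagy, 5.56% of import and mass and 7.41% of biogenesis genes, against 14.7% of all probe sets. Rictor-null arrays lay above WT arrays in both lineages for Sqstm1, Slc25a4 and Mterf1a. The call was kept in 17 of 19 settings for Sqstm1, 11 for Slc25a4 and 9 for Mterf1a. The second Sqstm1 probe set passed in Tfh cells, at 0.39 ± 0.091 (adjusted p = 0.0276), and did not pass averaged over both lineages, at 0.14 ± 0.064.

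**Figure D5:**
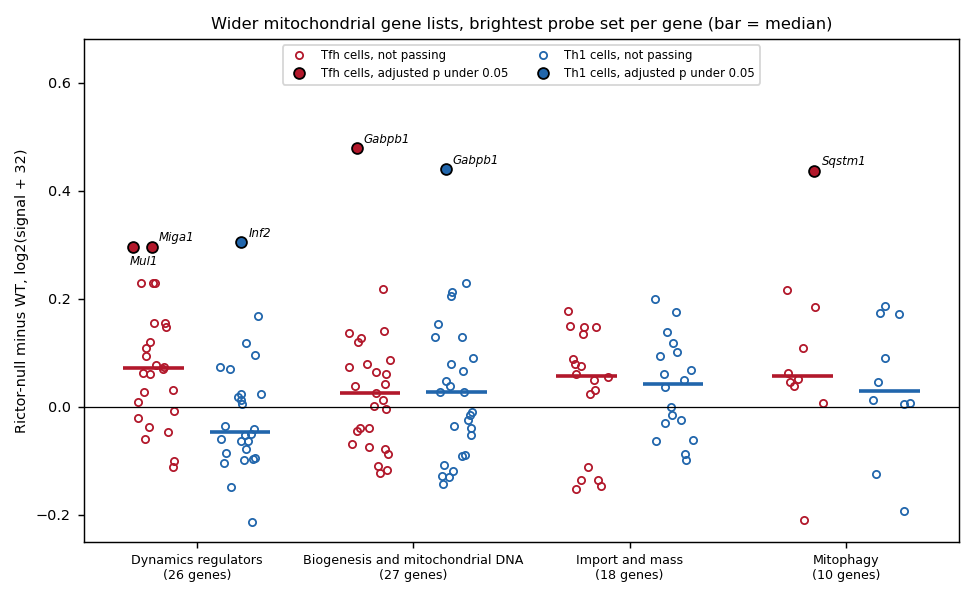
Rictor-null minus WT on the log2(signal + 32) scale at the brightest probe set of 81 genes in 4 lists (points; bars at the median of a list), in Tfh and Th1 cells; filled points passed at an adjusted p under 0.05. Gabpb1 stands at 0.48 in Tfh and 0.44 in Th1 cells; 4 genes pass in Tfh and 2 in Th1 cells.

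Between lineages, 6 of 81 wider genes were lower in Tfh than in Th1 cells of WT mice and 0 were higher in limma (7.41%; 19 and 1 at an unadjusted p under 0.05), and in Rictor-null mice 5 were lower and 1 was higher (7.41%; 14 and 3 unadjusted). Over all probe sets 9.40% passed in WT and 10.3% in Rictor-null mice. In a fit of the brightest probe sets of 11214 genes it was 14.7% and 9.71%, so the lists lay below all of these. Polrmt, the RNA polymerase of mitochondria, fell in both, by 0.35 ± 0.061 in Rictor-null (adjusted p = 0.00768) and by 0.32 ± 0.061 in WT mice (adjusted p = 0.0166). Inf2 fell in both too, by 0.53 ± 0.066 in Rictor-null (adjusted p = 0.00152) and by 0.45 ± 0.066 in WT mice (adjusted p = 0.00526). The second probe sets of Polrmt (-0.05 in Rictor-null and -0.21 in WT mice) and of Inf2 (-0.09 and -0.20) did not pass in either. In Rictor-null mice the calls held in 19 of 20 settings for Polrmt and 20 for Inf2, and in WT mice in 16 and 18. Both WT calls ended without either WT Tfh array, and that of Polrmt also without either WT Th1 array. Without the first or second WT Tfh array, Polrmt was at -0.37 and -0.27 and Inf2 at -0.46 and -0.45. The other genes lower in WT Tfh were Myc (-0.26), Timm44 (-0.26), Gabpb1 (-0.25) and Nfe2l2 (-0.21). Other tested probe sets did not pass there, at -0.24 and -0.09 for Timm44, -0.08 for Gabpb1 and -0.08 for Nfe2l2. The calls held in 12 of 20 settings for Myc, 13 for Timm44, 8 for Gabpb1 and 8 for Nfe2l2. All 4 ended under quantile normalization, under 75th percentile scaling and without either WT Tfh array. In Rictor-null Tfh the other lower genes were Sirt1 (-0.42), Usp8 (-0.35) and Mterf1a (-0.25), which held in 6, 14 and 6 of 20 settings. Without the second Rictor-null Tfh array Sirt1 was at -0.25 (adjusted p = 0.154), and the second Usp8 probe set was at -0.01 ± 0.12 and did not pass. Bnip3, a mitophagy receptor, was the 1 that was higher, at 0.33 ± 0.071 (adjusted p = 0.0192, held in 16 of 20 settings), and at 0.25 without the second Rictor-null Tfh array (adjusted p = 0.0825).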

How the data were processed

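The deposited table holds 1 signal per probe set and array, an intensity on a linear scale; per the submitters' processing notes the authors used MAS5 and RMA, with no version, role or order given, and the authors' scaling between arrays was not given in the sources used here. Signals were taken as deposited to log2(signal + 32). The filter kept probe sets brighter than the array median on 2 or more of the 8 arrays, which left 23725. A model with 1 mean per group over all 8 arrays was fitted with limma 3.58.1 in R 4.3.3 (4 residual and 5.37 prior degrees of freedom), with 6 comparisons and Benjamini-Hochberg adjustment over all probe sets tested in each. "Rose", "fell" or "passed" means an adjusted p under 0.05. The fit was tested on simulated data. A two-sided exact permutation test of 2 against 2 arrays cannot go below p = 0.333, so none was run. P-values measure the spread between pools, and precision is limited by the number of arrays.

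Members and gene lists were chosen with earlier results of these data known. Named were all member probe sets, the list genes with the smallest p among those called (up to 4 per list and comparison, in the genotype effect averaged over both lineages and both lineage comparisons), and the 5 genes most like Mfn2. The gene level is that of the brightest probe set. Same-numbered replicates deviated together with r = 0.31 and 0.13 between genotypes and -0.21 and -0.22 between lineages, so numbers were not taken as pairs. Alternatives covered scaling, filter, pseudocount, probe set choice, array weights, a variance trend, the arrays in the fit, a replicate block and each array left out. Figures used matplotlib 3.10.9.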

Additional observations from a re-analysis of the deposited data

How the results depend on the processing

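Over 2270 alternative values of 120 member results, 15 lost a call, 12 gained one and 0 reversed a called direction. A further 163 values switched sign without a call in either fit. Some settings, such as the variance trend, leave the difference itself unchanged and so could not reverse it. Over 373 values of 19 results on genes of the wider lists, 115 lost the call and 0 reversed. Between Rictor-null and WT Tfh cells, where 1 member passed, 0 passed after quantile normalization (8.37% of all probe sets) and after 75th percentile scaling (9.01%). With only the arrays of the 2 groups 0 passed as well (7.17% of all). Without both arrays lowest on the third component (the second Rictor-null Tfh and the first WT Th1) the Mfn2 difference was 0.24 and the call ended. There, 1 array alone stood for each of those 2 groups. Between Rictor-null and WT Th1 cells 0 passed throughout. Between Tfh and Th1 cells of WT mice, where 1 passed, it was 2 with array weights and with only the 2 groups. Over all probe sets, 20.6% and 14.3% passed in these settings, against 9.40% as reported. In Rictor-null mice the 1 that passed was the dim Dnm1l probe set. There 0 passed with no filter (4.44% of all), with the larger of the other pseudocounts (9.71%) and with array weights (6.3%). That probe set was not among those tested above the median on all 8 arrays or with the brightest probe set per gene. The 0 members called in those 2 settings therefore say nothing about it. The call of the dim Dnm1l probe set held in 12 of 18 settings. It ended without the first Rictor-null Th1 array, at 0.28, and held without the second, at 0.45. Without the first or second Rictor-null Tfh array it ended as well, at 0.36 and 0.37. For the averaged genotype effect, 1 member (Mfn2) passed with no filter (7.72% of all) and with the larger pseudocount (13.6% of all), against 0 as reported. For the difference between genotype effects, Mff 1456736_x_at moved from -0.47 to -0.73 without the first Rictor-null Tfh array and gained a call. In that fit 1 array alone stood for Rictor-null Tfh. Without the second Rictor-null Tfh array instead, the Mff value was -0.22 and had no call. The replicate block left the members called at 1, 0, 1 and 1 in the 4 pairwise comparisons and 0 in the others. Over all probe sets it called 1709 between Tfh genotypes (2387 without it), 1217 between WT lineages (2230) and 178 for the difference between genotype effects (298). Leaving out the first WT Tfh array gave 533, 207 and 14 calls, leaving out the second gave 585, 257 and 25, and leaving out the first Rictor-null Tfh array gave 4420, 3698 and 2245; array weights called 4898 between WT lineages. With an array left out, the lone array of its group is assumed to vary like the other groups. The cause of these shifts was not tested, and detection calls against background were not analysed here.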
